A study of Mus musculus with 4 samples.

Results

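The ZBTB genes encode a family of transcription factors, and their transcripts were measured in T helper 17 (Th17) cells, which are CD4 T cells named for their cytokine IL-17. The members were all protein-coding genes whose symbol is Zbtb followed by a digit, except 1 gene that is not analysed here, and they numbered 40 of the 50600 genes listed, of which 21764 are protein-coding. The choice used names and no measured value, so genes of the same kind with other names, such as Zfp131, are not members. Of the 40, 39 encode a protein with at least 1 match of a zinc finger motif. The other, Zbtb8os, meets the rule by its symbol only, since it encodes archease, a small cofactor of tRNA ligation, and its protein of 167 residues held 0 matches.

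The libraries are from primary Th17 cells of mouse strain C57BL/6NJ, linked by the labels to a protocol for differentiating CD4 T cells. They number 4 and carry biological replicate numbers 1 to 4 and the same donor label. They form 1 group, with no genotype, treatment or other contrast in the labels, and with age unknown and sex not collected. The assay title says total RNA-seq, but the protocol linked for library construction is one for poly(A) RNA. The labels do not say whether the libraries came from separate animals or cultures, so each spread and p-value refers to these samples and may be partly technical.

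A ZBTB protein carries a BTB domain near its start, which pairs the protein with itself or a relative and recruits corepressors, and Krüppel-type zinc fingers near its end, which read DNA. Many members repress transcription, and several are known from lymphocytes. Examples are Zbtb32, which is induced in activated lymphocytes, Zbtb16, the factor of natural killer T cells, and Zbtb1, which is needed for lymphoid development.

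The libraries held 28555677, 36998648, 58104663 and 42896684 fragment counts in replicates 1 to 4. They were T cell libraries by their markers: 8 of 8 T and Th17 cell markers were at 1 TPM (a level per exon length, scaled to the same sum in each library) or more in every library, Il17f at 11569 ± 117 TPM (SD, n = 4). The libraries divided by sex-linked transcripts. Xist, the RNA that silences an X chromosome, was at 132, 131, 0.329 and 0.496 TPM in replicates 1 to 4, and Y-linked Ddx3y at 0.428, 0.347, 58.9 and 57.3 TPM. Replicates 1 and 2 therefore had the pattern of female cells in these genes, and replicates 3 and 4 that of male cells. The shared donor label thus does not stand for 1 animal, and every spread over the 4 libraries spans this division. Of the 40 members, 39 are autosomal, and the X-linked one, Zbtb33, did not follow that division (36.5, 38.7, 38.7 and 35.9 TPM). Whether autosomal members follow the division was not tested.

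The promoters of 4 members are shown first. They go with the highest member (Zbtb32) and with a gene among the 3 highest members (Zbtb17). The others are a pair of neighbouring paralogues that lay far apart in level (Zbtb8a and Zbtb8b). Each is the RefSeq sequence of mouse build GRCm38.p6 from 250 bases before the transcript start to 50 after it, 5′ to 3′ on the gene's strand. The capitals mark CpG dinucleotides (CG) and CCAAT boxes on either strand (CCAAT or ATTGG). Zbtb32 lies at chr7:30598860-30599159 (minus strand), Zbtb17 at chr4:141444423-141444722 (plus strand), Zbtb8a at chr4:129377979-129378278 (minus strand) and Zbtb8b at chr4:129440769-129441068 (minus strand).

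Zbtb32: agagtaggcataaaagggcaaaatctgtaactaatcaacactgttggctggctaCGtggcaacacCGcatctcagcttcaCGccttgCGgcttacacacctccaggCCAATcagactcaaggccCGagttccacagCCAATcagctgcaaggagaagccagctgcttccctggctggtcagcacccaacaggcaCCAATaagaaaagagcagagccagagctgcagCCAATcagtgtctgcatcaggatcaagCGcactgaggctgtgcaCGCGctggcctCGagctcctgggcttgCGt
Zbtb17: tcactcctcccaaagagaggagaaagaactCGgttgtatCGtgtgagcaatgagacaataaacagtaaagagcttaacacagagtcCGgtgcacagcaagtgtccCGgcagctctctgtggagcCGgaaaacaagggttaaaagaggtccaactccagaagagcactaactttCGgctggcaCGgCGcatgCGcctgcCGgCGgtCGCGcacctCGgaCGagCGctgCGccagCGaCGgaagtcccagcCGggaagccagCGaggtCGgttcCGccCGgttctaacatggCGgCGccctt
Zbtb8a: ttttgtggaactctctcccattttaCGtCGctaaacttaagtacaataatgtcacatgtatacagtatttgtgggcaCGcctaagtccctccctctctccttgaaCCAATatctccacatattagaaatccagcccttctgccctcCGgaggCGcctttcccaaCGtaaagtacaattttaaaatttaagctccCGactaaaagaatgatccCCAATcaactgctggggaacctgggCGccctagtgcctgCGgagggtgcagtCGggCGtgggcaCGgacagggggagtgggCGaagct
Zbtb8b: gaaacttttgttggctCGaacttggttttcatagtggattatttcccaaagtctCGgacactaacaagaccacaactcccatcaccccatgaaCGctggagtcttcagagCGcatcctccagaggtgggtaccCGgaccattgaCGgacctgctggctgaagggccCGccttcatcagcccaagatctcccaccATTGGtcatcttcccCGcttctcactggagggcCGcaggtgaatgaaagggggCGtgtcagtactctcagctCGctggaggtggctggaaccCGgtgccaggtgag

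Zbtb32 had 10 CpG dinucleotides and 4 CCAAT boxes in this window, and Zbtb17 had 26 and 0. Zbtb8a had 13 and 2, and Zbtb8b had 12 and 1.

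Most of the members were transcribed in these cells. Of the 40 members, 33 (82.5%) were at 1 TPM or more in every library, the level called detected here, against 47.0% of all protein-coding genes (10223 of 21764). Without Zbtb8os the count was 32 of 39. The median of the members' mean levels was 13.2 TPM, against 0.575 TPM over all protein-coding genes. Among detected genes alone the median was 15.7 TPM for the members and 31.3 TPM for all protein-coding genes. One member lay at 100 TPM or more, a band that holds 9.33% of protein-coding genes. There were 13 members from 20 to under 100 TPM (19.8% of protein-coding genes), 8 from 10 to under 20 (7.22%), 11 from 1 to under 10 (11.6%) and 7 under 1 TPM (52.0%). The detection threshold fell into a gap, since the lowest detected member, Zbtb42, averaged 1.62 TPM and the next, Zbtb20, 0.337 TPM. The count was also 33 at 0.5 TPM, and 26 members stayed at 5 TPM or more in every library.

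**Figure D1:**
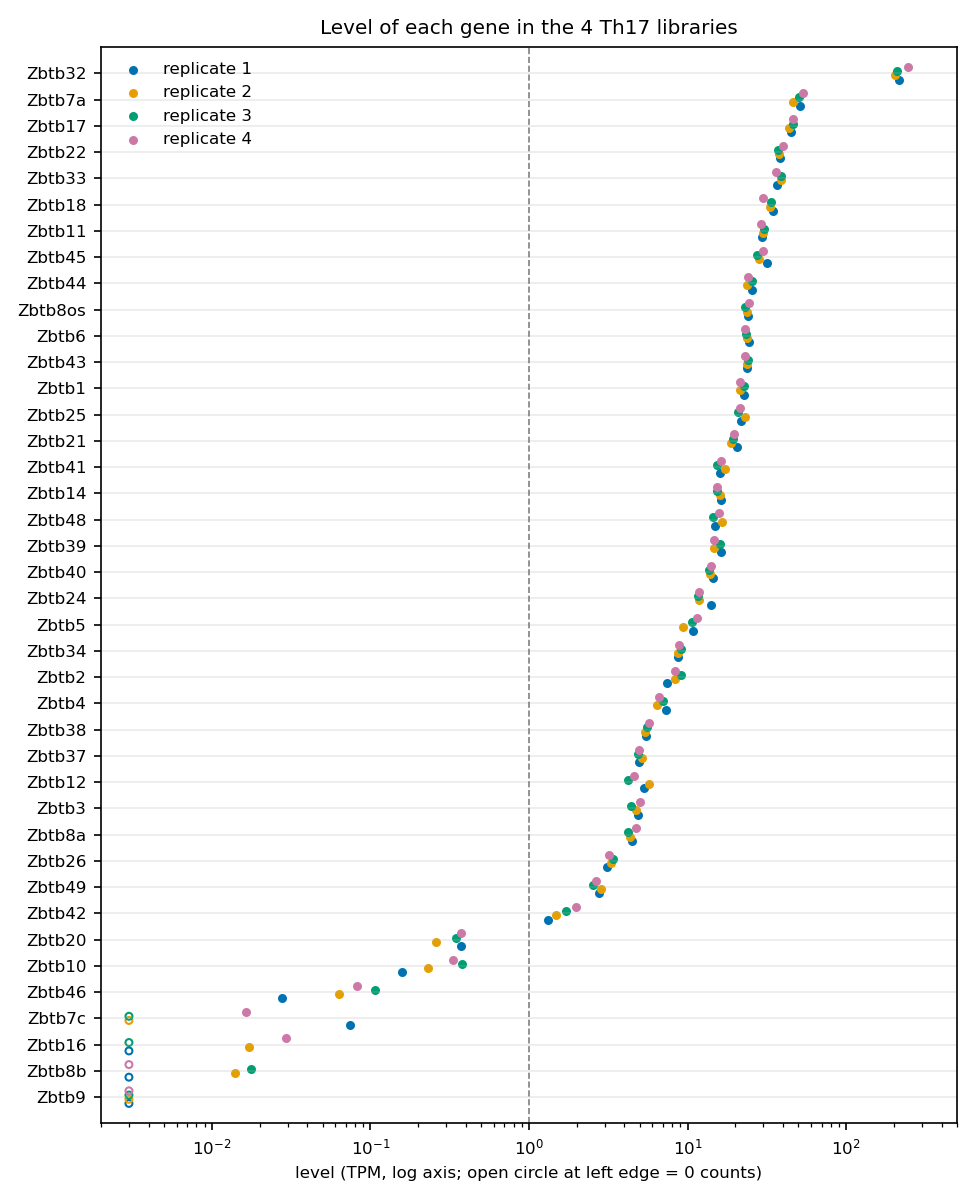
Level of each of the 40 genes in each library, in TPM on a log axis, ordered by mean; filled points are libraries, open circles at the left edge are libraries with 0 counts, and the dashed line is 1 TPM. Zbtb32 stands alone at the top at 219 TPM on average, and 7 genes lie left of the line, with no gene between 1.31 TPM and 0.378 TPM.

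Zbtb32 was by far the highest member. It encodes PLZP, also called repressor of GATA, which is known to limit lymphocyte proliferation and cytokine production. The gene (ENSMUSG00000006310.10) lies on chromosome 7, minus strand, from 30589681 to 30598909 in mm10. It had 215, 204, 210 and 247 TPM in replicates 1 to 4. Replicate 4 was the highest and the others lay between 204 and 215 TPM. The mean of 219 ± 19.3 TPM (SD, n = 4) was 4.35 times that of the next member and at the 96.3 percentile of protein-coding genes. Zbtb32 alone made up 27.5% of the summed TPM of the 40 members. That sum was 775.6 to 824.3 TPM in single libraries, and 571.6 to 588.3 TPM with Zbtb32 left out.

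Next came Zbtb7a and Zbtb17, both with known partners or roles in blood cells. Zbtb7a encodes LRF, which directs the choice between B and T cell lineages and represses fetal globin genes in erythroid cells. It had 51.2, 46.3, 50.8 and 53.1 TPM in replicates 1 to 4 (50.4 ± 2.89). Zbtb17 encodes Miz-1, through which Myc represses genes such as Cdkn1a and Cdkn2b. It had 44.8, 43.5, 46.5 and 46.4 TPM (45.3 ± 1.43). Zbtb7a was above Zbtb17 in 4 of 4 libraries, although their ranges overlapped. The order turned when levels were scaled by the transcript that encodes the longest protein, in place of all exon bases. Zbtb7a was then at 57.7 TPM and Zbtb17 at 64.5 TPM.

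Among the genes that go with Zbtb17, Myc was at 434 ± 14.6 TPM, its dimer partner Max at 91.0 ± 2.48 TPM and Cdkn1a, which encodes the cell cycle inhibitor p21, at 418 ± 27.8 TPM (SD, n = 4 each). Cdkn2b, which encodes the inhibitor p15, had 0 counts in every library.

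The next levels were held by Zbtb22, Zbtb33, Zbtb18, Zbtb11, Zbtb45 and Zbtb44. Zbtb22 had 38.4, 37.8, 37.1 and 39.8 TPM in replicates 1 to 4 (38.3 ± 1.15). Zbtb18, or RP58, a repressor needed for neuronal development, had 34.6, 33.2, 33.6 and 29.7 TPM (32.8 ± 2.11). Zbtb11, a regulator of nuclear genes for mitochondrial proteins, had 29.6, 29.9, 30.3 and 29.1 TPM (29.7 ± 0.534), the smallest relative spread of any detected member. Zbtb45 had 31.9, 28.3, 27.5 and 29.8 TPM (29.4 ± 1.90), and Zbtb44 had 25.5, 23.6, 25.6 and 24.1 TPM (24.7 ± 0.995). Replicate 4 was the lowest for Zbtb18 and Zbtb11 and the highest for Zbtb22, so no library led throughout. Zbtb22 and Zbtb33 had the same order in 2 of 4 libraries, as did Zbtb11 and Zbtb45.

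Around 20 TPM several members could not be ordered. Zbtb8os had 23.9, 23.7, 23.0 and 24.3 TPM in replicates 1 to 4. Its mean (23.7 ± 0.548 TPM) and those of Zbtb6 (23.6 ± 0.553) and Zbtb43 (23.6 ± 0.505) lay close, and the ranges of the 3 genes overlapped. Zbtb1 had 22.8, 21.3, 22.5 and 21.3 TPM (22.0 ± 0.797), and Zbtb25, a repressor of NFAT target genes in human T cells, averaged 21.7 ± 0.938 TPM. They lay below Zbtb43 in 4 of 4 libraries. Zbtb21 followed at 19.6 ± 0.718 TPM.

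Between 10 and 20 TPM lay Zbtb41 (16.3 ± 0.761 TPM), Zbtb14 (15.7 ± 0.452), Zbtb48 (15.4 ± 0.839), Zbtb39 (15.3 ± 0.847), Zbtb40 (14.0 ± 0.360), Zbtb24 (12.3 ± 1.11) and Zbtb5 (10.6 ± 0.842). Zbtb48 encodes TZAP, a telomere-binding protein, and Zbtb5 is known to repress Cdkn1a in human cells. Of these, Zbtb41, Zbtb14, Zbtb48 and Zbtb39 overlapped in range, each with the next, and so did Zbtb40 and Zbtb24. Over the whole order, the 40 members make 39 neighbouring pairs, of which 22 had the same order in every library and 17 did not.

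Zbtb24 is mutated in the human ICF immunodeficiency syndrome and activates Cdca7, which works with the chromatin remodeller Hells. It had 14.0, 11.7, 11.7 and 11.8 TPM in replicates 1 to 4, so replicate 1 stood above the others. Cdca7 was at 117 ± 2.61 TPM and Hells at 176 ± 2.85 TPM, while Dnmt3b, a DNA methyltransferase also mutated in that syndrome, was at 10.5 ± 0.427 TPM (SD, n = 4 each).

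From 1 to 10 TPM lay Zbtb34 (8.81 ± 0.202 TPM), Zbtb2 (8.31 ± 0.695), Zbtb4 (6.79 ± 0.393), Zbtb38 (5.52 ± 0.137), Zbtb37 (4.98 ± 0.109), Zbtb12 (4.95 ± 0.675), Zbtb3 (4.76 ± 0.260), Zbtb8a (4.43 ± 0.202), Zbtb26 (3.22 ± 0.119), Zbtb49 (2.69 ± 0.138) and Zbtb42 (1.62 ± 0.298). Zbtb2 shares 3.10% of its 100-base windows with the processed pseudogene Gm13294, the largest such share with a locus elsewhere among the members, and fragments that map to both could be uncounted.

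The 7 members under 1 TPM include factors that define other cells. Zbtb20, which represses Afp in liver and acts in plasma cells, had 97, 88, 186 and 149 counts in replicates 1 to 4. This is 0.337 ± 0.0540 TPM over the 30730 exon bases of the gene, and 3.11 ± 0.503 CPM (counts scaled to the library total) without regard to length, so Zbtb20 counts as detected at a threshold of 1 CPM and not at 1 TPM. Zbtb10, which competes with Sp factors for GC-rich sites, had 10, 19, 49 and 32 counts (0.275 ± 0.0994 TPM). Both were low in every library, and their library values overlapped.

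Zbtb46, the factor of classical dendritic cells, had 2, 6, 16 and 9 counts (0.0701 ± 0.0336 TPM). Dendritic cell markers were similarly scarce, with 1 of 7 detected (H2-Ab1 at 1.45 TPM), a sum of 2.00 to 2.67 TPM per library, and Clec9a, Siglech and Cd209a at 0 counts. Zbtb16, or PLZF, had 0, 1, 0 and 2 counts, at or under 3 counts in every library, which is the limit that a count of 0 allows. That limit of 3 counts corresponds to 0.0665, 0.0513, 0.0325 and 0.0439 TPM for Zbtb16 in replicates 1 to 4. Of the 8 innate-like T and natural killer cell markers 2 were detected (Klrd1 at 5.64 TPM and Trdc at 1.28 TPM). Their sum was 6.68 to 9.87 TPM per library, and Klrb1c, Ncr1 and Tyrobp were at 0 counts. Of the B and plasma cell markers 1 of 6 was detected (Sdc1 at 5.13 TPM), with a sum of 4.12 to 5.96 TPM and Ms4a1 at 0 counts. Of the macrophage and monocyte markers 0 of 3 were detected, with a sum of 0.875 to 1.21 TPM and Lyz2 at 0 counts. In a bulk sample, fewer cells of a type and less RNA per cell cannot be told apart.

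Zbtb7c, the relative of Zbtb7a, had 3, 0, 0 and 1 counts, and Zbtb8b, the relative of Zbtb8a, had 0, 1, 2 and 0 counts. Zbtb9 had 0 counts in every library, but its transcription could not be measured. Zbtb9 spans 26973167 to 26976205 on the plus strand of chromosome 17 (mm10), and 2748 of its 2798 exon bases (98.2%) lie inside exons of Ggnbp1 on the same strand in the gene models used for counting. Fragments that overlap more than 1 gene were not counted, so a fragment from these bases was credited to neither gene. Ggnbp1 itself had 27, 65, 85 and 72 counts (0.701 ± 0.174 TPM). The next largest overlap of this kind was between Zbtb6 and Zbtb26, which share 449 bases, 8.84% of Zbtb6 and 4.73% of Zbtb26.

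**Figure D2:**
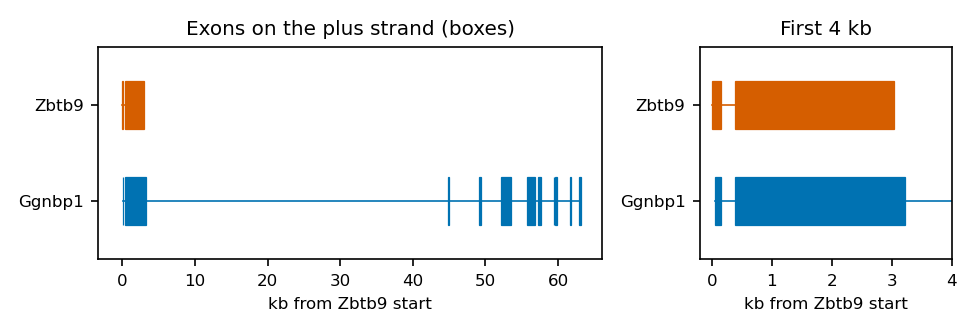
Exons of Zbtb9 and Ggnbp1 in the deposited gene models, both on the plus strand, as boxes against the distance in kb from the start of Zbtb9, over the whole Ggnbp1 gene (left) and the first 4 kb (right). All of Zbtb9 but the first 0.05 kb lies under Ggnbp1 exons, which covers 98.2% of its exon bases.

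The second comparison set related or neighbouring members against each other inside single libraries, as the log2 ratio of TPM + 0.1. With 4 libraries the exact two-sided sign-flip permutation test cannot give a p under 0.125, and that is the value of every pair given here, before and after adjustment over the 11 pairs. The text therefore gives sizes and counts of libraries. One of the 11, Zbtb9 with Zbtb22, has no usable value because Zbtb9 could not be counted.

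The largest distance was between the lymphocyte-induced and the innate-like factor. Zbtb32 exceeded Zbtb16 by log2 ratios of 11.07, 10.77, 11.04 and 10.90 in replicates 1 to 4, with a mean of 10.94 ± 0.14 (SD, n = 4). These values depend on the added 0.1 TPM, and the mean was 7.76 with 1 TPM added. From pooled counts, 25838 against 3, the length-scaled ratio was 19305, with an exact 95% interval of 6605 to 93616 that covers counting error only. Zbtb7a exceeded Zbtb7c by 8.72 ± 0.35, or 5.65 with 1 TPM added, with a pooled ratio of 2985 (1166 to 10959) on 17192 against 4 counts.

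Zbtb8a and Zbtb8b lie on the same strand of chromosome 4 with 47648 bases between them. Zbtb8a had 4.44, 4.36, 4.21 and 4.69 TPM in replicates 1 to 4, and exceeded Zbtb8b in every library by 5.39 ± 0.18 on the log2 scale. This size also depends on the added 0.1 TPM, since it was 2.43 with 1 TPM added. The pooled ratio was 477 (162 to 2321) on 512 against 3 counts. Their promoters, shown above, had CpG observed/expected ratios of 0.689 and 0.505.

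Zbtb18 had a log2 ratio of 4.62, 4.40, 4.21 and 3.83 in replicates 1 to 4 over its relative Zbtb42, which is known from muscle, with a mean of 4.27 ± 0.33, or 5.08 in CPM. Zbtb42 itself had 1.31, 1.47, 1.72 and 1.99 TPM, above 1 TPM in each library. Zbtb22 exceeded Zbtb12 by 2.93 ± 0.20, and Zbtb12 had 5.28, 5.72, 4.22 and 4.59 TPM. The paralogues Zbtb34 and Zbtb43 lie 18962 bases apart on chromosome 2. Zbtb34 had 8.64, 8.68, 9.08 and 8.85 TPM, against 23.7, 23.5, 24.1 and 22.9 TPM for Zbtb43, a log2 ratio of -1.41 with the smallest SD of the pairs (0.04). Zbtb34 was thus the lower gene in every library.

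Zbtb6 and Zbtb26 overlap on the same strand of chromosome 2. Zbtb6 had 24.3, 23.6, 23.2 and 23.1 TPM, against 3.09, 3.27, 3.36 and 3.18 TPM for Zbtb26, a log2 ratio of 2.83 ± 0.08. This size depends on the gene length used. Scaled by the transcript that encodes the longest protein, in place of all exon bases, Zbtb6 was at 23.6 TPM and Zbtb26 at 14.9 TPM.

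The readers of methylated DNA formed another group. Zbtb33 (Kaiso), Zbtb4 and Zbtb38 bind methylated CpG, and Kaiso also binds p120-catenin. Zbtb33 exceeded Zbtb38 by 2.74 ± 0.08 and Zbtb4 by 2.45 ± 0.11 on the log2 scale, in 4 of 4 libraries each. In CPM these log2 ratios were 1.56 and 1.79. Zbtb4 had 7.26, 6.38, 6.95 and 6.57 TPM, against 5.44, 5.38, 5.56 and 5.69 TPM for Zbtb38, a log2 ratio of 0.29 ± 0.09. That order is one of length scaling: with CPM the log2 ratio was -0.23. With the transcript that encodes the longest protein, Zbtb4 was at 7.06 TPM and Zbtb38 at 8.74 TPM. Ctnnd1, which encodes p120-catenin, was at 1.45 ± 0.280 TPM.

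**Figure D3:**
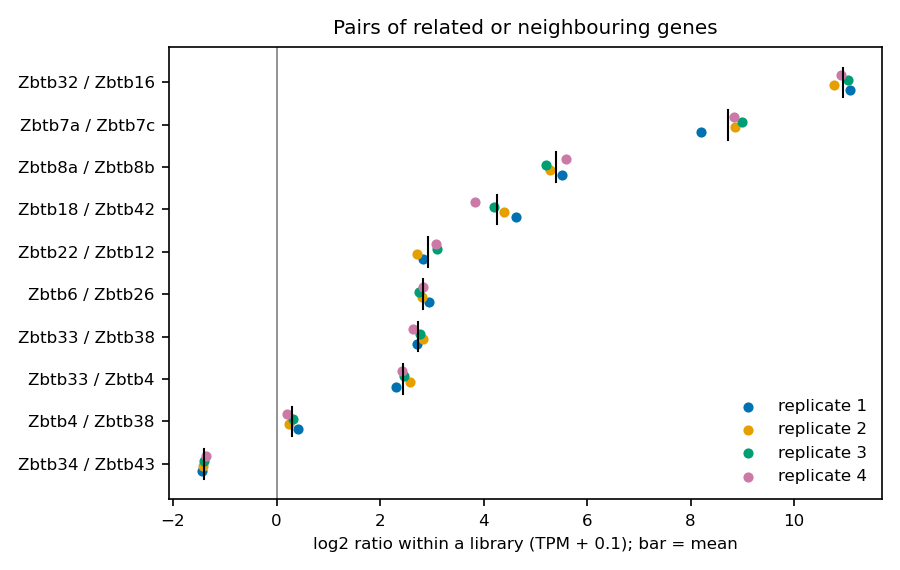
Log2 ratio of the first to the second gene of each of 10 pairs within each library, from TPM + 0.1; points are libraries and black bars their means. Zbtb32 over Zbtb16 is the largest at 10.94, Zbtb34 over Zbtb43 is the only pair left of 0 at -1.41, and the libraries of a pair lie close together.

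The pairs above were chosen with earlier results of these data known, and a further pair of neighbours was added after its own values were seen. Zbtb1 and Zbtb25 lie head to head on chromosome 12, their starts 663 bases apart, and had nearly equal levels. Zbtb1 had 22.8, 21.3, 22.5 and 21.3 TPM, against 21.8, 23.0, 20.8 and 21.3 TPM for Zbtb25. The log2 ratio was 0.02 ± 0.10 (SD, n = 4), with Zbtb1 higher in 2 of 4 libraries.

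The levels of single members also depend on gene length elsewhere. The scaling by coding transcript used the transcript that encodes the longest protein, and the longest such transcript where proteins tied. This scaling changed the length of the members only, with exon lengths kept for all other genes. By it, 9 members moved by more than 1.5 times. All of them moved upward, as a shorter length gives by construction. The number detected, at the same 1 TPM, stayed 33. Zbtb44 moved most among the high members, to 93.3 TPM, which would place it second. Zbtb11 moved to 45.0 TPM, Zbtb24 to 22.1 TPM and Zbtb2 to 19.0 TPM. Which transcripts these cells use was not measured. The antisense gene Zbtb11os1, counted apart because the counting used strand, was at 1.80 ± 0.213 TPM, against 29.7 TPM for Zbtb11.

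The third comparison asked whether any member differed between the 4 libraries by more than the typical spread of genes at its level. Of the 40 members 35 passed the filter on low counts, and Zbtb46, Zbtb7c, Zbtb16, Zbtb8b and Zbtb9 did not. With edgeR's negative binomial deviance and Benjamini-Hochberg adjustment over all genes tested, 0 of the 35 passed an adjusted p of 0.05, where 0.523% of all genes did (65 of 12434). At an unadjusted p under 0.05 there were 2 members, Zbtb32 and Zbtb7a, and 557 genes in all. With DESeq2 size factors the count of members was also 0. Zbtb32 had the smallest p of the members (0.00193, edgeR adjusted p = 0.200), and its highest library was 1.22 times its lowest by CPM.

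That call for Zbtb32 changed with the genes and libraries in the fit. Its adjusted p was 0.0142 in edgeR without the genes of chromosomes X and Y and 0.0463 without replicate 3, and it lay between 0.208 and 1.00 with DESeq2 size factors, no filter, the common dispersion, or replicate 1, 2 or 4 left out. By Poisson deviance it was 1.34e-32. Against counting noise alone (Poisson deviance, adjusted p under 0.05), 11 of the 35 members (31.4%) differed between libraries, where 36.6% of all genes did. These were Zbtb32, Zbtb7a, Zbtb2, Zbtb18, Zbtb45, Zbtb5, Zbtb44, Zbtb24, Zbtb33, Zbtb41 and Zbtb1.

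The spread of the members was close in size to that of other genes. The median SD of log2 CPM was 0.0661 over the 35 members and 0.0696 over all genes tested. The coefficient of variation of the detected members ran from 1.79% to 18.4%, the highest being Zbtb42, with a median of 4.31%, against 4.14% for detected protein-coding genes. It was under 5% for 19 of 33, a count with no share of all detected genes beside it, so it does not set the members apart. The members lay on both sides of their means in each library: 17, 13, 18 and 19 of 35 members lay above their own mean in replicates 1 to 4. Among all genes tested, 50.7%, 50.3%, 50.5% and 50.9% did so. The median shifts of the members were -0.01, -0.02, 0.02 and 0.01 on the log2 scale.

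**Figure D4:**
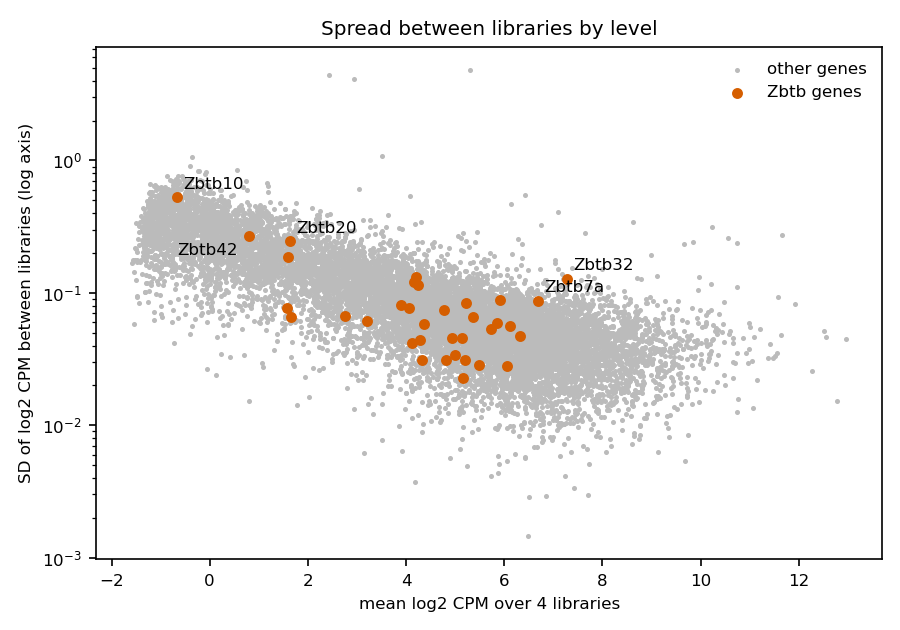
SD of log2 CPM between the 4 libraries (log axis) against mean log2 CPM, for the 35 Zbtb genes tested (orange) and the other genes (grey). The Zbtb genes lie within the cloud, with Zbtb32 (SD 0.13) and Zbtb7a (SD 0.09) at its upper side among high genes and Zbtb10 (SD 0.53) the most spread.

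The proteins were compared by zinc finger number and length. By the motif C-x(2 to 4)-C-x(12)-H-x(3 to 5)-H, searched in the translated coding sequences of GENCODE M21, the 39 members had 1 to 14 matches, with a median of 4. Zbtb41 had 14, Zbtb17 had 13, and Zbtb11 and Zbtb40 had 12 each, while Zbtb32 and Zbtb7a had 3 each. Proteins ran from 420 to 1258 residues with a median of 616. The first match began at residue 210 or later in every member, which leaves the start of the protein, where the BTB domain lies, free of fingers. The median number was 4 in detected members and 2 in the others, Zbtb9 included.

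Promoters matched for 35 of the 40 members in the RefSeq table, and Zbtb10, Zbtb16, Zbtb40, Zbtb48 and Zbtb7c had no entry. The 31 detected members had a median GC content of 66.7%, 29 CpG dinucleotides and a CpG observed/expected ratio of 0.860. All detected protein-coding genes had 61.3%, 22 and 0.796. The 4 members under 1 TPM with an entry (Zbtb20, Zbtb46, Zbtb8b and Zbtb9) had 53.5%, 7.5 and 0.359, and other protein-coding genes had 51.0%, 5 and 0.270. The ratios of these 4 members were 0.213, 0.0520, 0.505 and 0.833 in that order. Zbtb9 is among them by its 0 counts only, since its transcription could not be measured. The RefSeq starts of Zbtb20 and Zbtb46 lie 371403 and 35038 bases inside the deposited gene models. Among the detected members, those of Zbtb38, Zbtb12 and Zbtb6 also lie far inside, by 21156, 15076 and 12252 bases. Other starts of these genes are not covered.

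Zbtb32, the highest member, did not have a CpG-rich promoter. Its window had 56.0% GC and a CpG observed/expected ratio of 0.428, at the 38.9 percentile of protein-coding promoters. A second RefSeq start of the gene had 52.0% GC, 3 CpG dinucleotides and a ratio of 0.150. By contrast Zbtb17 had 0.997 and Zbtb33 had 1.15. A low ratio was not particular to the highest member, since the detected member Zbtb3 (4.76 TPM on average) had 0.450. The 4 CCAAT boxes of Zbtb32, a motif looked for after the sequence was seen, were matched or exceeded in 1.29% of protein-coding promoters (212 of 16469), and Zbtb5 and Zbtb3 also had 4. At least 1 CCAAT box was found in 12 of 35 member promoters (34.3%) and 38.7% of protein-coding promoters. A match is a run of letters and not a shown binding site.

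**Figure D5:**
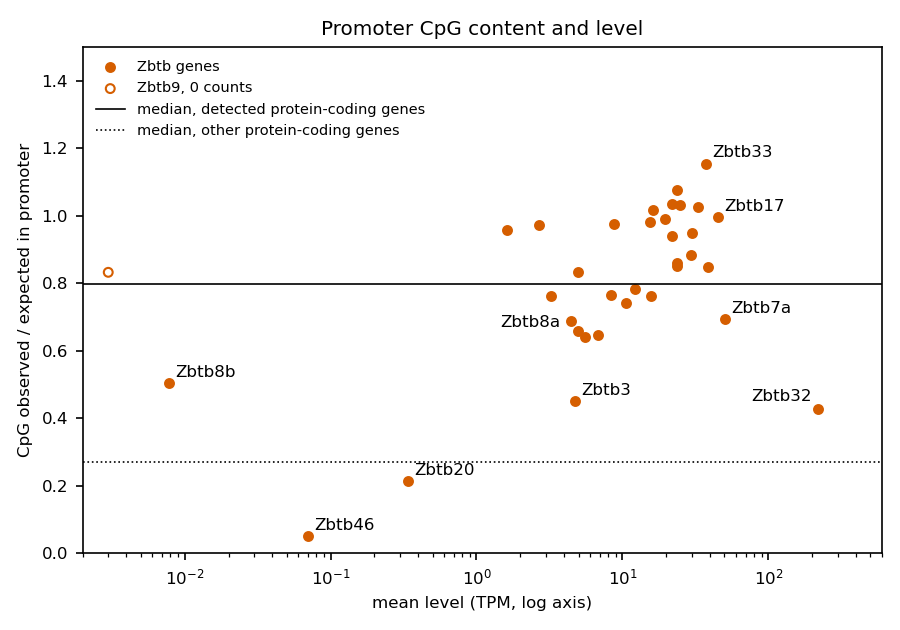
CpG observed/expected ratio of the RefSeq promoter window against mean level in TPM (log axis) for 35 Zbtb genes; the open circle is Zbtb9, drawn at the left because it has 0 counts, and lines are medians of detected (0.796) and other (0.270) protein-coding genes. Most detected members lie near or above the upper line, while Zbtb32 lies at 0.428 with the highest level.

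Other motifs were searched on both strands, and 3 of them hold a CG within their letters. GGGCGG, a site of Sp and Klf factors, was in 23 of 31 detected members (74.2%), against 67.6% of detected protein-coding genes and 35.7% of all RefSeq promoters of this length. CCGGAA, an Ets site, was in 13 (41.9%), against 32.3% and 14.9%. CACGTG, an E-box, was in 5 (16.1%), against 10.9% and 7.15%. TGANTCA, an AP-1 site, was in 0, against 4.32% and 7.81%, and TTCNNNGAA, a Stat site, in 0, against 6.75% and 8.30%. None of these 5 motifs was in the Zbtb32 window.

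Further genes of the same kind under other names, and genes that work with the family, were transcribed as well. As background, 47.0% of all protein-coding genes were detected. The median over all protein-coding genes was 0.575 TPM, and 31.3 TPM over the detected ones. Of 8 other BTB zinc finger genes 7 were detected, with a median of 15.4 TPM over the 8. Zfp131 was highest at 86.4 ± 3.38 TPM, above the mean of every member but Zbtb32. Patz1 (28.5 ± 0.591), Hic1 (25.6 ± 2.84) and Mynn (16.6 ± 0.534) followed, and Bcl6b was not detected at 0.0606 TPM. All 10 genes of the list for corepressors and ligase partners of BTB domains were detected, with a median of 95.6 TPM and a range of 46.6 to 181 TPM. The highest were the deacetylase gene Hdac1 (181 ± 4.02 TPM), the ubiquitin ligase scaffold Cul3 (155 ± 5.83), Hdac2 (117 ± 3.77) and the corepressor Ncor1 (109 ± 2.25). The lowest was Tbl1xr1 at 46.6 ± 0.320 TPM, a mean that Zbtb32 and Zbtb7a exceeded and the other members did not.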

How the data were processed

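The 4 Th17 libraries form 1 group. Per the file headers, the authors deposited raw fragment counts per gene from featureCounts 1.4.6-p4 with GENCODE M13 models and strand option 2. Per the labels the build is mm10. The sources used here do not give the aligner. Neither multi-mapping fragments nor fragments over more than 1 gene were counted, per the command in the headers. Exon lengths come from the same files.

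TPM was computed here from the deposited counts and exon lengths. Symbols and biotypes came from GENCODE M21 by gene ID without version, with no name for 224 of 50600 genes. Of the 40 members, 34 IDs had the same version and 6 another. Variation between libraries was fitted in edgeR 4.0.16 (R 4.3.3) on counts of all genes that passed its default filter on low counts: TMM scaling, an intercept-only negative binomial fit at the trended dispersion, the residual deviance against chi-square with 3 degrees of freedom, and Benjamini-Hochberg adjustment. The common biological coefficient of variation was 0.0535. DESeq2 1.42.0 gave alternative size factors. SDs of log2 CPM used a prior count of 2. Pairs used TPM + 0.1. Intervals are exact at 95%, and intervals and the limit of 3 counts cover counting error only.

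Named members were every member by mean, with library values for the 10 highest, those under 1 TPM, those in the pairs, and Zbtb1, Zbtb7a, Zbtb16, Zbtb17, Zbtb20, Zbtb24, Zbtb32, Zbtb33 and Zbtb46. The members, pairs and lists were chosen with earlier results of these data known. Alternatives were other thresholds, scalings, filters, dispersions and pseudocounts, CPM, and coding transcript length for the members only. Others left out X- and Y-linked genes, mitochondrial genes in TPM, or each replicate. The planned comparison of protein identity was not made, since a table of reference proteins was not used here. One further gene of the corepressor list is not reported here.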

Additional observations from a re-analysis of the deposited data

Results flagged for a closer look

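In a group of 4, a library was marked where its gap to the nearest other library exceeded Dixon's 95% critical value as a share of the group's range, which chance gives in about 1 in 20 genes. Among 39 members 1 was marked. Zbtb24 in replicate 1 was at 14.0 TPM, above the other libraries, with a gap of 0.959 of the range. Among the 49 list and marker genes 3 were marked. Mynn was at 15.8 TPM in replicate 4, the lowest library. Jchain was at 0.108 TPM in replicate 2 and Pax5 at 0.0262 TPM in replicate 4, each with 0 counts in the other libraries and 3 counts in that one. Counts in 1 library alone make the gap the whole range by construction, so the rate of 1 in 20 does not hold for Jchain and Pax5. In all, 4 of 88 genes were marked.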

How the results depend on the processing

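The number of members detected was 26 to 34 over the alternatives, with 26 at 5 TPM, 34 at 1 CPM, 32 without Zbtb8os and Zbtb9, and 33 with any replicate left out. Their median level was 12.8 to 13.5 TPM with a replicate or the mitochondrial genes left out. Coding transcript length was not applied to this median. The number of members that vary between libraries, 0, was 11 by Poisson deviance, 1 of 34 without genes of chromosomes X and Y, and 0 to 1 with a replicate left out, where the 1 was Zbtb32 without replicate 3. Among all genes the count of 65 was 18 with a ratio of at least 2 between libraries, 113 with no filter, 4550 by Poisson deviance, 123 at the common dispersion, 91 of 12014 without genes of chromosomes X and Y, and 32 (without replicate 4) to 49 with a replicate left out (35 without replicate 1), in fits with fewer samples. The cause of the other changes was not tested. Among log2 ratios of pairs, Zbtb4 over Zbtb38 turned to -0.23 in CPM, which by construction leaves out gene length. The other 65 values, over 11 pairs and their alternatives, kept their direction, the void pair with Zbtb9 included. Besides the sizes given in the report, and leaving out the pair with Zbtb9, the ratios that moved by over 1.5 times were, in CPM, Zbtb7a over Zbtb7c (9.67), Zbtb8a over Zbtb8b (4.80) and Zbtb6 over Zbtb26 (1.96). Of the 40 members, 9 moved by over 1.5 times with coding transcript length (the values in the report and Zbtb38, Zbtb49 at 7.50, Zbtb46 at 0.112 and Zbtb8b at 0.0154 TPM). Depth limits what can be said of Zbtb7c, Zbtb16 and Zbtb8b, which lie at or under 3 counts in every library. Their mean levels of 0.0227, 0.0116 and 0.00788 TPM were 0.00545 without replicate 1, 0.00570 without replicate 4 and 0.00464 without replicate 3, in that order of genes. No paired analysis was possible because the libraries form 1 group.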
